A study of Mus musculus with 6 samples.

Results

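The genes described here are the microRNA genes named on an Affymetrix mouse gene array, on which transcript levels were compared between 3 Rb1L/L and 3 Rb1+/+ cultures of mouse embryonic fibroblasts (MEFs), a mixed primary culture of connective tissue cells. The product of Rb1 is pRb, the retinoblastoma protein, a brake on E2F transcription factors. In the L allele the cleft of pRb that takes up LXCXE-containing proteins is altered, and Rb1L/L cells carry it on both copies, whereas Rb1+/+ cells carry the unaltered gene. All cultures came from E13.5 embryos, were at passage 4 and were proliferating when total RNA was taken, with 1 array per culture, and the title of the series places them in a study of condensin II and divergently paired genes. A member was any gene whose single annotated symbol starts with Mir and a digit, or with Mirlet, and its brightest transcript cluster (the array's set of probes for 1 transcript) stood for it. The rule found 300 genes among the 19938 genes with a single-symbol cluster; 296 are hairpin genes and 4 are long host transcripts (Mir17hg, Mir99ahg, Mir100hg and Mir670hg).

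MicroRNAs are short RNAs that lower the output of messenger RNAs with a matching site. Most are transcribed by RNA polymerase II as long primary transcripts, often inside another gene or as several hairpins in a row; the nuclear Drosha and Dgcr8 complex cuts out the hairpin, Xpo5 exports it, Dicer1 trims it, and an Argonaute protein holds the mature strand. The bases at the 5′ end of the mature strand, its seed, choose the targets. The miR-15/16 family is known for targeting cyclins, and its Mir15a and Mir16-1 hairpins lie in the long non-coding gene Dleu2. The Mir17-92 and Mir106b-25 clusters are known E2F and Myc targets and favour proliferation. The array was hybridised with labelled cDNA made from total RNA, and the labels name no selection of small RNA. A primary transcript, a hairpin and a mature microRNA therefore cannot be told apart in a cluster's value, and neither can fewer cells of a type and less RNA per cell.

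The mature strands below belong to the members on which the comparison between genotypes turns, shown so that shared seeds can be seen. They were taken from RefSeq on GRCm38.p6, which held a mature sequence for 270 of the 300 members, and the capitals mark the seed, bases 2 to 8. The first lines belong to the seed AGCAGCA, and the mature miR-15a-5p lies at chr14:61632075-61632096 on the minus strand and miR-16-5p of Mir16-1 at chr14:61631936-61631957 on the same strand.
miR-15a-5p: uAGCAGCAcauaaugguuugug
miR-16-5p: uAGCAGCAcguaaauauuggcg
miR-15b-5p: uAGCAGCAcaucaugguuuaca
The next lines are the strands of the Mir17-92 cluster, on the plus strand of chromosome 14, where miR-18a-5p lies at chr14:115043867-115043889 and miR-19a-3p at chr14:115044048-115044070.
miR-17-5p: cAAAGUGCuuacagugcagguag
miR-18a-5p: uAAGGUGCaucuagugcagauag
miR-19a-3p: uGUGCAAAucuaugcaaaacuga
miR-20a-5p: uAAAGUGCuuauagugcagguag
miR-19b-3p: uGUGCAAAuccaugcaaaacuga
The strands of the Mir106b-25 cluster, on the minus strand of chromosome 5 inside Mcm7, follow, with miR-25-3p at chr5:138165332-138165353.
miR-106b-5p: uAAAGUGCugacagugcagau
miR-93-5p: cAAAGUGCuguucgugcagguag
miR-25-3p: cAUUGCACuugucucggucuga
The last lines are strands of other members whose level differed between the genotypes. For Mir6516, Mir677 and Mir423, both strands of the hairpin are on record and the 5p strand is shown.
miR-6516-5p: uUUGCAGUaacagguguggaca
miR-677-5p: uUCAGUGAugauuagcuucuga
miR-423-5p: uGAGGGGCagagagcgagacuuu
miR-196a-5p: uAGGUAGUuucauguuguuggg
miR-365-3p: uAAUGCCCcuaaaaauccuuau
miR-692: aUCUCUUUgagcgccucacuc
The miR-16-5p, miR-19b-3p, miR-196a-5p and miR-365-3p strands are each encoded by 2 genes and miR-692 by 3, so a change at 1 of those genes is not a measure of the mature strand.

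Most microRNA genes were dim on this array. Their mean log2 value over the 6 arrays ran from 2.83 to 10.53 with a median of 4.97, against a median of 6.95 over all 19938 genes. A gene was tested when its mean lay above log2 5.081, a floor set by olfactory and vomeronasal receptor genes, and 141 of the 300 members (47%) passed it, against 77.6% of all genes. Above log2 6.5 lay 76 members (25.3%), against 11158 of all genes (56%). The members just inside that mark were Mir31, Mir365-2 and Mir455 at 6.54, 6.52 and 6.52, and those just outside were Mir694, Mir342 and Mir125b-1 at 6.48, 6.45 and 6.44. The 12 brightest, in order, were Mir692-1, Mir100hg, Mir210, Mir346, Mir341, Mir680-3, Mir667, Mir7-1, Mir139, Mir134, Mir6516 and Mir320. Of these, Mir210 is the hypoxia-induced microRNA, Mir341, Mir667 and Mir134 come from the imprinted domain of chromosome 12, and Mir7-1 lies in an intron of Hnrnpk. Brightness also reflects probe sequence, so the order is one of signal and not of copies per cell.

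The cultures carried the signal of fibroblasts. All 10 fibroblast markers were bright, with means from 8.84 to 13.43. Of these, 1 (10%, against 12.2% of all tested genes), Col3a1, was called (−0.33, lower in Rb1L/L, limma adjusted p = 0.0112). Of 32 listed microRNA genes known for being restricted to other tissues, 24 were measured and 4 were above the floor: Mir150 of lymphocytes at a mean of 7.07, the neural Mir124a-2 at 5.79, and the epithelial Mir200a at 6.15 and Mir200c at 5.18. The muscle microRNA genes had means of 3.01 to 3.88, the pluripotency genes 3.02 to 3.59, Mir142 of blood cells 5.01 and Mir122 of liver 5.02, all below the floor. None of the 4 tested tissue-restricted genes was called, against 12.2% of all tested genes. Of 7 macrophage and blood marker genes measured, 4 (57.1%, against 12.2% of all tested genes) were called. Adgre1 rose by 0.95, Cd14 by 0.35 and C1qa by 0.34, and Cx3cr1 fell by 0.34 on the log2 scale. On the same list, Ptprc (0.10), C1qb (0.11) and Csf1r (0.18) were not called. The mean of that list ranged from 6.86 to 7.25 on Rb1L/L arrays and from 6.58 to 6.99 on Rb1+/+ arrays, and its 7 genes had means from 5.86 to 8.60. Of 5 neural markers, 3 (60%, against 12.2% of all tested genes) were called, all lower (Fabp7 by 0.50, Tubb3 by 0.48 and Ncam1 by 0.30). Sox2 (−0.07) and Map2, which went the other way (0.18), were not called. The mean of the neural list was 8.11 to 8.19 on Rb1L/L arrays and 8.37 to 8.41 on Rb1+/+ arrays. Of 5 endothelial markers, 4 were tested and 1 (25%, against 12.2% of all tested genes) was called, Kdr, which rose by 0.58. Pecam1 (−0.04) was below the floor, and Cdh5 (−0.06), Tek (−0.00445) and Vwf (−0.08) were tested and not called. No skeletal muscle or epithelial marker was called. Means ran from 5.19 to 12.05 (Acta1) for skeletal muscle, from 5.06 to 8.36 (Krt18) for epithelial and from 5.30 to 11.66 (Ncam1) for neural markers. Acta1 and Ncam1 were thus brighter than some fibroblast markers. The part of cells other than fibroblasts in the microRNA results was not tested. The Rb1 cluster itself read 8.96, 8.85 and 8.99 in Rb1L/L and 8.87, 8.61 and 8.99 in Rb1+/+ (0.11 ± 0.10 SE, adjusted p = 0.519), and a probe set for the whole transcript does not show which allele a culture carried.

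Between the genotypes 9 of the 141 tested members (6.38%) were called with limma at a Benjamini-Hochberg adjusted p below 0.05, 7 higher and 2 lower in Rb1L/L, against 12.2% of all 15462 genes tested (7.1% higher and 5.08% lower). The members' share thus lay below the background. Mir15a, Mir18, Mir17hg, Mir6516, Mir677, Mir196a-1 and Mir423 rose, and Mir365-1 and Mir692-1 fell. Counted by array, 29 of the 141 (20.6%) had groups that did not overlap, 8 higher and 21 lower in Rb1L/L, against 34.5% of all tested genes. At an unadjusted p below 0.05 stood 30 members (21.3%, against 28.7% of all tested genes), 8 higher and 22 lower. Differences are given on the log2 scale as Rb1L/L minus Rb1+/+ with the moderated standard error (SE).

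**Figure D1:**
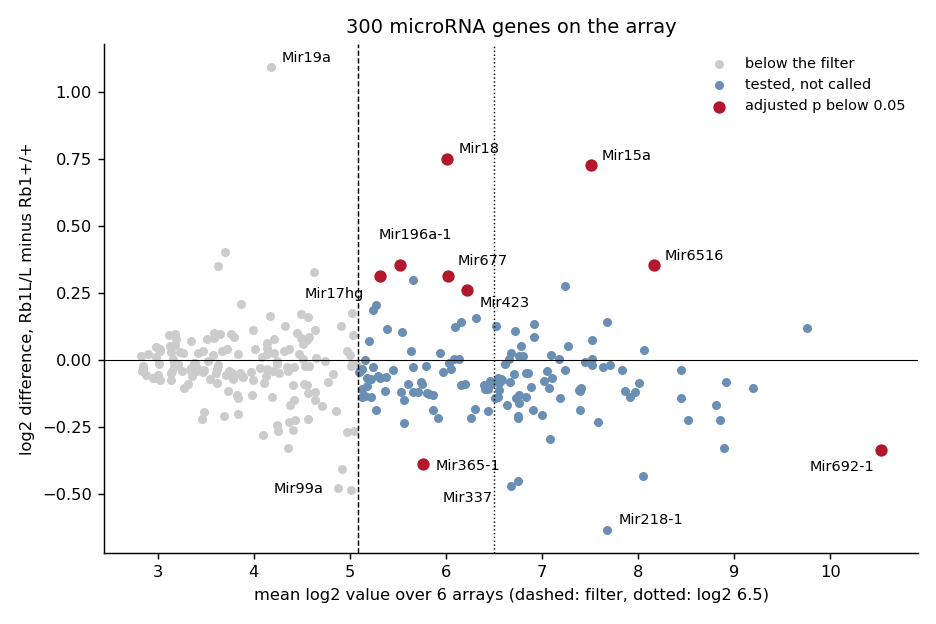
Each point is 1 of the 300 microRNA genes, with the mean log2 value over 6 arrays on the x axis and the log2 difference, Rb1L/L minus Rb1+/+, on the y axis. The dashed line is the floor for testing and the dotted line log2 6.5; Mir15a and Mir18 stand highest among the called genes (red), and Mir19a, left of the floor, has the highest difference of all.

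Small negative differences prevailed among the tested members, although 7 of the 9 called members were higher in Rb1L/L. Of the 141 tested members, 103 (73%) had a lower mean in Rb1L/L, against 56.4% of all tested genes, and their median difference was −0.08, against −0.02 for all tested genes. Centring each array on its median gave 97 lower and a median of −0.06, against 0.00 for all tested genes. Quantile normalization gave 103 lower and a median of −0.06, against −0.02. Among the 76 members above log2 6.5, 56 were lower with a median of −0.08. Of the 76, 3 (3.95%, against 12.2% of all tested genes) were called: Mir15a, Mir6516 and Mir692-1. With the test restricted to genes above log2 6.5, 7 of these 76 members were called, 2 higher and 5 lower in Rb1L/L. Of all genes then tested, 2172 of 11158 (19.5%) were called.

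Mir15a had the smallest p of any microRNA gene and ranked 16 among all 15462 genes. It read 7.87, 7.92 and 7.82 in Rb1L/L and 7.10, 7.10 and 7.22 in Rb1+/+. The groups lay well apart, with every Rb1L/L array above every Rb1+/+ array, and the difference was 0.73 ± 0.06 (SE; adjusted p = 0.00146), 1.65-fold. It was called whichever single array was left out, with differences from 0.70 to 0.77.

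Its cluster partner Mir16-1 was dim. It read 4.62, 4.47 and 4.41 in Rb1L/L and 4.33, 4.45 and 4.42 in Rb1+/+, with overlapping groups and a difference of 0.10 below the floor. The Dleu2 cluster, named for the host transcript of both, lay close to the bottom of the scale at 2.99, 3.01 and 2.93 in Rb1L/L and 3.02, 2.86 and 2.84 in Rb1+/+. Neither Mir16-1 nor Dleu2 read enough signal to be tested, so Mir15a could not be set against the rest of its transcript. Of the genes with the AGCAGCA seed, 6 were measured, 3 were tested and 1, Mir15a, was called, against 12.2% of all tested genes. Mir195a (−0.09) and Mir497 (−0.01) were tested, and Mir15b (0.21) and Mir16-2 (0.11), which lie in the condensin gene Smc4 on chromosome 3, were below the floor. Smc4 itself differed by 0.09 ± 0.09 (adjusted p = 0.562).

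Mir15a and Rb1 lie on the same chromosome, 14, but are not neighbours in the mouse reference. Between them lie 113 protein-coding genes, of which 83 were tested and 17 (20.5%, against 12.2% of all tested genes) called, 10 higher and 7 lower in Rb1L/L. The hairpin that does lie inside Rb1 is Mir687. It was dim, at 3.94, 3.83 and 3.64 in Rb1L/L against 3.48, 3.53 and 3.35 in Rb1+/+. The groups did not overlap, and without the floor the difference of 0.35 had an adjusted p of 0.0451. Beside Dleu2, Trim13, a ubiquitin ligase gene, moved the other way from Mir15a. It read 8.75, 8.57 and 8.55 in Rb1L/L and 9.17, 9.04 and 9.06 in Rb1+/+ (−0.47 ± 0.07, adjusted p = 0.00902), and it was singled out after its values were seen. Spryd7, the next gene, differed by −0.07 (adjusted p = 0.531).

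**Figure D2:**
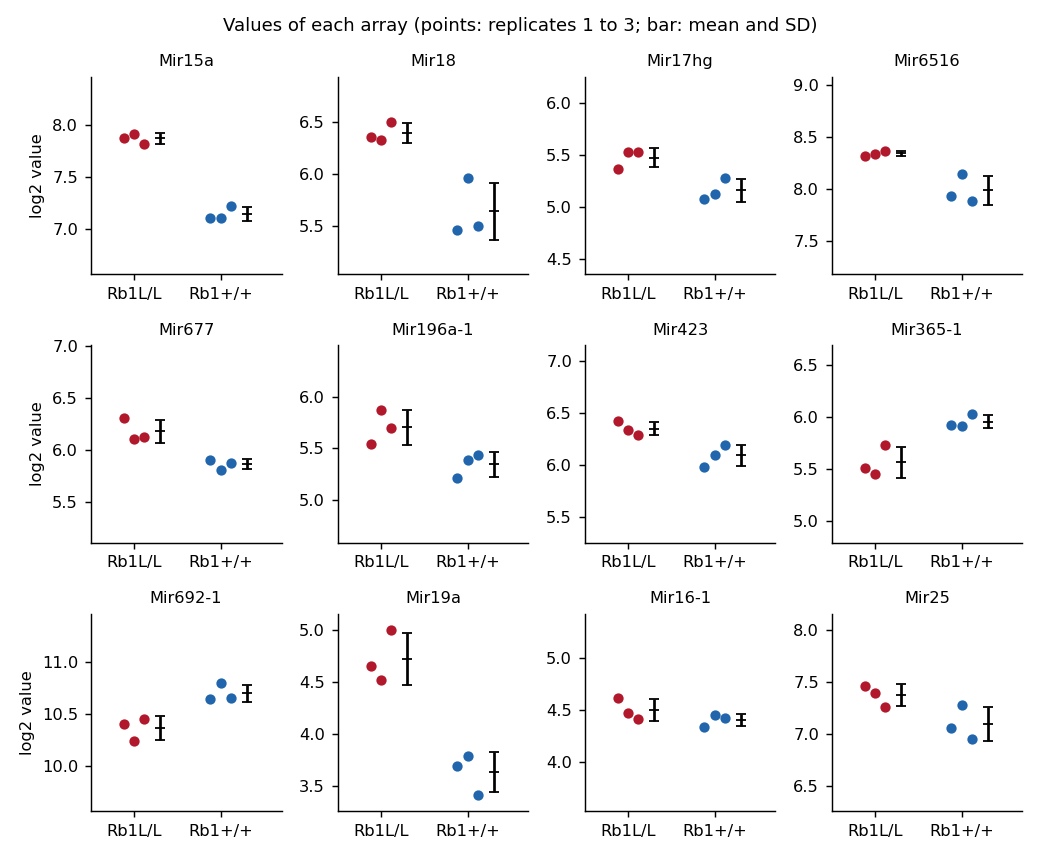
Log2 values of 12 microRNA genes on each array, Rb1L/L in red left of Rb1+/+ in blue, points in the order of replicates 1 to 3 and bars for the mean and SD (n = 3). Every y axis spans the same log2 range, so Mir15a, Mir18 and Mir19a show the widest gaps, while the groups of Mir16-1 and Mir25 overlap.

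The Mir17-92 cluster is the second place where members rose. Mir18, which makes miR-18a, read 6.35, 6.33 and 6.5 in Rb1L/L and 5.46, 5.96 and 5.50 in Rb1+/+. The groups did not overlap although Rb1+/+ culture 2 lay well above the other Rb1+/+ cultures, and the difference was 0.75 ± 0.13 (adjusted p = 0.0114). The call held with any 1 array left out. The non-coding gene Mir17hg is the host transcript by its name, although the reference used here did not place Mir18 inside it. Mir17hg read 5.37, 5.53 and 5.53 in Rb1L/L and 5.07, 5.13 and 5.28 in Rb1+/+. It rose by 0.31 ± 0.08 (adjusted p = 0.0355), close to the floor, and of the 6 fits with 1 array left out it kept its call only without Rb1+/+ replicate 3 (adjusted p from 0.0352 to 0.114).

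The other hairpins of the cluster were below the floor. Mir19a, the member with the widest difference of all 300, read 4.66, 4.52 and 5.01 in Rb1L/L and 3.69, 3.79 and 3.42 in Rb1+/+. Its lowest Rb1L/L value lay above its highest Rb1+/+ value, and its difference of 1.09 had an adjusted p of 0.00426 when no floor was applied. Mir20a differed by 0.40 without overlap (adjusted p = 0.0627 with no floor), whereas Mir19b-1 (0.16) and Mir17 (0.09) overlapped between the groups. All 5 hairpins measured, of 6 annotated, had a positive difference, with a median of 0.40, and 3 of the 5 did not overlap, against 29.4% of all genes with no floor. Mir19b-2 on the X chromosome, which makes the same strand as Mir19b-1, differed by 0.10 with overlapping groups below the floor.

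Mir106b, Mir93 and Mir25 lie in an intron of Mcm7, a replication helicase subunit gene and E2F target, on the same strand. Mcm7 was higher, at 10.52, 10.61 and 10.50 in Rb1L/L and 9.89, 10.00 and 9.84 in Rb1+/+ (0.64 ± 0.06, adjusted p = 0.00273). The fitted differences of the hairpins were smaller. Mir25 read 7.47, 7.40 and 7.26 in Rb1L/L and 7.06, 7.28 and 6.95 in Rb1+/+, a difference of 0.28 ± 0.09 with an adjusted p of 0.0924, and of 0.0466 with the replicate number as a block. Mir93 differed by 0.02 ± 0.08 and Mir106b by 0.12 ± 0.11, with overlapping groups in both. The third cluster with these seeds, Mir106a-363 on the X chromosome, was dim throughout: 5 of 6 hairpins were measured, none was tested, and their differences ran from −0.09 to 0.10. The 6 measured genes with the seed AAAGUGC, spread over all 3 clusters, had differences from −0.09 to 0.40; 2 of them, Mir93 and Mir106b, were tested and neither was called.

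The promoter window of Mcm7, 250 bases before to 50 after the start in RefSeq, is printed because Mcm7 hosts these hairpins and pRb acts on E2F. It is chr5:138171834-138172133 on the minus strand of GRCm38.p6, and the capitals mark the matches to an E2F-type motif.
Mcm7 promoter: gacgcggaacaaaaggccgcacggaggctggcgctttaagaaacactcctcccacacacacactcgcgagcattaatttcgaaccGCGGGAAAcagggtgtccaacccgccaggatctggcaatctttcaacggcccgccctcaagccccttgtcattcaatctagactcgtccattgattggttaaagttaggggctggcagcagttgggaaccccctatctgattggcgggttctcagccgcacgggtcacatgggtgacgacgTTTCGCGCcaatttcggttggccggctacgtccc
The letters searched, on both strands, were TTTCCCGC, TTTGGCGC, TTTGCCGC and TTTCGCGC. The Mcm7 window holds 2 matches that do not overlap each other, while the window of the other annotated Mcm7 start and that of Dleu2 hold none. Of all 32851 windows of this length, 744 (2.26%) hold at least 1 match. A match is a description of the letters and not evidence of binding.

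**Figure D3:**
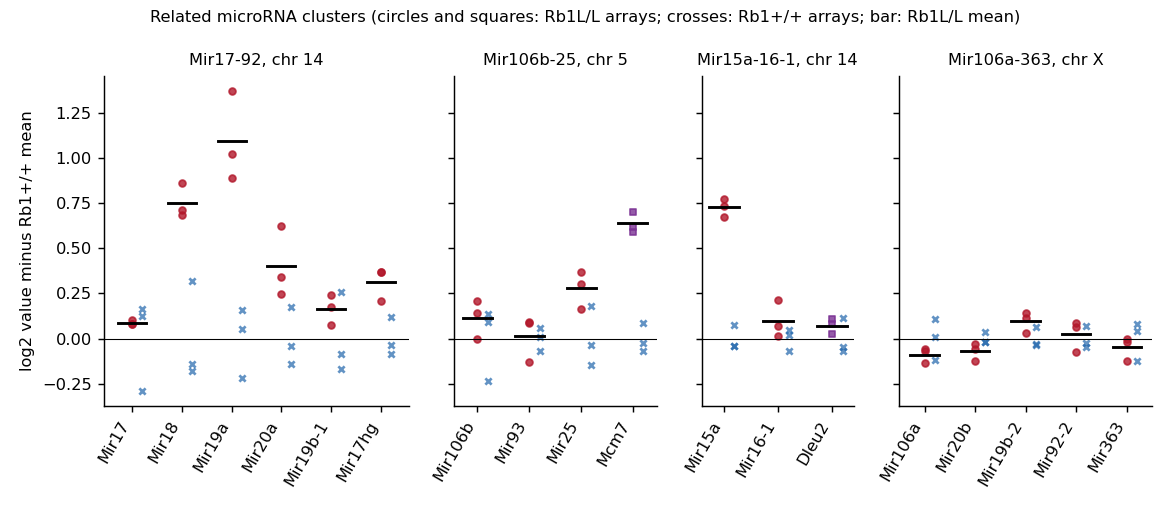
Log2 value of each array minus the Rb1+/+ mean for the members of 4 related clusters, Rb1L/L arrays as circles left of Rb1+/+ arrays as crosses, with a bar for the Rb1L/L mean; squares are the Rb1L/L arrays of the host genes Mcm7 and Dleu2. Mir18, Mir19a and Mir15a stand clear of the crosses, while Mir93 lies near 0 and its host Mcm7 at 0.64, and the means of the X-linked cluster lie within 0.10 of 0.

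The other called members lay outside the Mir15a and Mir17-92 clusters. Mir6516, a hairpin in the small nucleolar RNA host gene Snhg20 (not analysed here), read 8.32, 8.34 and 8.37 in Rb1L/L and 7.93, 8.15 and 7.89 in Rb1+/+. Its Rb1L/L arrays were tightly grouped above all Rb1+/+ arrays (0.35 ± 0.08, adjusted p = 0.0246). Mir677, in the ATP synthase gene Atp5b, read 6.31, 6.11 and 6.13 in Rb1L/L and 5.91, 5.81 and 5.88 in Rb1+/+ (0.31 ± 0.07, adjusted p = 0.0282), whereas Atp5b differed by −0.09 (adjusted p = 0.365). The hairpin and its host thus differed in sign, although the host was not called.

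Mir196a-1, which lies among the HoxB genes and targets Hox transcripts, read 5.54, 5.87 and 5.69 in Rb1L/L and 5.21, 5.39 and 5.44 in Rb1+/+ (0.36 ± 0.10, adjusted p = 0.0482). Of the genes with its seed, Mir196b differed by −0.07 and the dim Mir196a-2 by −0.22, and neither was called. Mir423 read 6.42, 6.34 and 6.29 in Rb1L/L and 5.98, 6.10 and 6.19 in Rb1+/+ (0.26 ± 0.07, adjusted p = 0.0499), and its host Nsrp1, a splicing regulator gene, differed by −0.14 (adjusted p = 0.221). Both sat at the edge of the threshold: Mir423 had an adjusted p of 0.0676 with the replicate block, and neither held when any single array was left out.

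Among the members that fell, Mir692-1 was the brightest microRNA gene of all, at 10.41, 10.24 and 10.45 in Rb1L/L and 10.65, 10.80 and 10.66 in Rb1+/+ (−0.34 ± 0.08, adjusted p = 0.0287). Its mature strand is shared with Mir692-2 and Mir692-3, whose clusters also carry the ferritin gene Ftl1 and were not used, so its signal cannot be assigned to 1 gene. Mir365-1 read 5.51, 5.45 and 5.73 in Rb1L/L and 5.92, 5.91 and 6.03 in Rb1+/+ (−0.39 ± 0.08, adjusted p = 0.0234). It forms a cluster with Mir193b, which was not analysed here. Its sister gene Mir365-2, which makes the same mature strand, differed by 0.13 ± 0.10 (adjusted p = 0.45) with overlapping groups. With 1 array left out, Mir365-1 kept its call in 2 of 6 fits, those without Rb1L/L replicate 3 or Rb1+/+ replicate 2 (adjusted p from 0.0161 to 0.0829). Mir692-1 (0.0413 to 0.0872) and Mir677 (0.0497 to 0.0871) kept it only without Rb1L/L replicate 3, and Mir6516 (0.0116 to 0.0784) only without Rb1+/+ replicate 2.

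Some of the widest differences were not called. Mir218-1, in the axon guidance gene Slit2, read 7.41, 6.98 and 7.70 in Rb1L/L and 7.73, 7.66 and 8.60 in Rb1+/+, a difference of −0.63 ± 0.26 with an adjusted p of 0.151, and of 0.0128 with the replicate block. Slit2 itself differed by −0.21 (adjusted p = 0.384). Mir145a, a smooth muscle microRNA gene, read 7.78, 7.79 and 7.93 in Rb1L/L and 8.05, 8.05 and 8.71 in Rb1+/+, a difference of −0.44 ± 0.16 (adjusted p = 0.12, and 0.0381 with the block). Culture 3 of Rb1+/+ thus lay far above its group for both Mir218-1 and Mir145a. Mir181b-2 read 6.45, 6.47 and 6.64 in Rb1L/L and 7.16, 6.54 and 7.22 in Rb1+/+, a difference of −0.45 ± 0.17 (adjusted p = 0.113, and 0.0467 with the block). The block called 13 members (9.22%, against 14.4% of all tested genes), 7 higher and 6 lower, and 8 of them were also called without it; it added Mir145a, Mir181b-2, Mir218-1, Mir25 and Mir370 and dropped Mir423. With no floor 13 of the 300 members were called, against 1601 of all 19938 genes (8.03%). Among the 13 were 6 below the floor: Mir19a and Mir687 were higher, and Mir99a, Mir100, Mir200b and Mir541 are described by their values.

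Those last 4 were not alike. Mir99a read 4.55, 4.78 and 4.59 in Rb1L/L and 4.94, 5.06 and 5.35 in Rb1+/+, and Mir100, its close relative, 4.13, 4.14 and 4.32 in Rb1L/L and 4.57, 4.41 and 4.60 in Rb1+/+. Both were lower in every Rb1L/L array than in any Rb1+/+ array (−0.48 and −0.33). Their host transcripts by name, Mir99ahg (−0.08 ± 0.07) and Mir100hg (0.12 ± 0.08), both well above the floor, were not called. The reference used here did not place Mir99a inside Mir99ahg. The epithelial Mir200b differed by −0.27 and the imprinted Mir541 by 0.33. The let-7 genes are known for restraining proliferation. Of these, 9 were measured and 4 were tested. Mirlet7e (0.00), Mirlet7i (−0.08), Mirlet7d (0.11) and Mirlet7a-1 (−0.03) all had overlapping groups and no call, against 12.2% called over all tested genes.

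Members that lie next to each other were joined into genomic clusters where neighbours in the reference lay within 10 kb, which gave 14 clusters with at least 3 measured hairpins. Apart from those already named and the imprinted domain, they held no called gene, and the member of smallest p in each that had a tested gene was Mir532 (0.30 ± 0.18, adjusted p = 0.323), Mir23a (−0.09 ± 0.08, adjusted p = 0.47), Mir125a (−0.10 ± 0.07, adjusted p = 0.376) and Mirlet7d (0.11 ± 0.07, adjusted p = 0.347). On the X chromosome, 39 members were measured, 10 were tested and none was called, against 12.2% of all tested genes. The 10 tested members are too few to tell these shares apart. The 2 arrays numbered 1 had low Xist (4.79 in Rb1L/L and 5.13 in Rb1+/+) and the others had 11.44 to 11.61, and the Y-linked Eif2s3y was high in those 2 alone, in both genotypes.

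The imprinted domain on chromosome 12, where the maternal chromosome expresses Meg3, Rian and Mirg with a long array of hairpins and the paternal one Dlk1 and Rtl1, held 40 of the 47 members on that chromosome. Of these 21 were tested, and none was called with limma, against 12.2% of all tested genes. An unadjusted p below 0.05 was reached by 8 of the 21, against 28.7% of all tested genes. The replicate block called 1 of the 21, Mir370, against 14.4% of all tested genes. Of the 21, 15 had a lower mean in Rb1L/L, with a median of −0.14, and all 7 whose groups did not overlap (33.3% of the 21, against 34.5% of all tested genes) were lower. Averaged over the 21 genes, the arrays read 6.82, 6.92 and 6.78 in Rb1L/L and 6.88, 6.94 and 7.07 in Rb1+/+, so the groups overlapped for the domain as a whole, and the Rb1L/L array was the lower of each same-numbered pair. Without both arrays numbered 3, 12 of 21 were lower and the median was −0.05.

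The 3 stretches of the domain differed in their medians. The 6 tested genes from Mir770 to Mir136 were all lower in Rb1L/L with a median of −0.23, and both tested genes from Mir341 to Mir370, in Rian, were lower with a median of −0.28, whereas 7 of the 13 tested genes from Mir379 to Mir3072 were lower with a median of −0.09. Mir337 read 6.44, 6.63 and 6.27 in Rb1L/L and 6.90, 6.68 and 7.16 in Rb1+/+. Its groups were separate but wide, and the difference of −0.47 ± 0.13 had an adjusted p of 0.0519, just outside the threshold. Mir127, which is transcribed antisense to Rtl1 and targets it, read 6.11, 6.24 and 6.12 in Rb1L/L and 6.43, 6.32 and 6.37 in Rb1+/+ (−0.22 ± 0.06, adjusted p = 0.0579).

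Mir341 read 8.65, 8.80 and 8.75 in Rb1L/L and 8.99, 8.87 and 9.33 in Rb1+/+ (−0.33 ± 0.11, adjusted p = 0.0956). Mir370, next to it, read 5.51, 5.43 and 5.40 in Rb1L/L and 5.83, 5.63 and 5.57 in Rb1+/+ (−0.23 ± 0.08, adjusted p = 0.0925, and 0.0493 with the block). In the distal stretch, Mir667 read 8.70, 8.77 and 8.72 in Rb1L/L and 8.91, 8.92 and 8.87 in Rb1+/+, a narrow but complete separation (−0.17 ± 0.05, adjusted p = 0.0786), while Mir323 (0.16 ± 0.12) and Mir377 (0.14 ± 0.08) were among those with positive values. The long transcripts Rian, Meg3 and Rtl1 leaned the same way without a call. Rian differed by −0.23 ± 0.07 (adjusted p = 0.0585, and 0.0453 with the block), Meg3 by −0.17 ± 0.09 (adjusted p = 0.251) and Rtl1 by −0.14 ± 0.08 (adjusted p = 0.31). The groups of Meg3 and Rtl1 overlapped, and Mirg and Dlk1 were not analysed here.

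**Figure D4:**
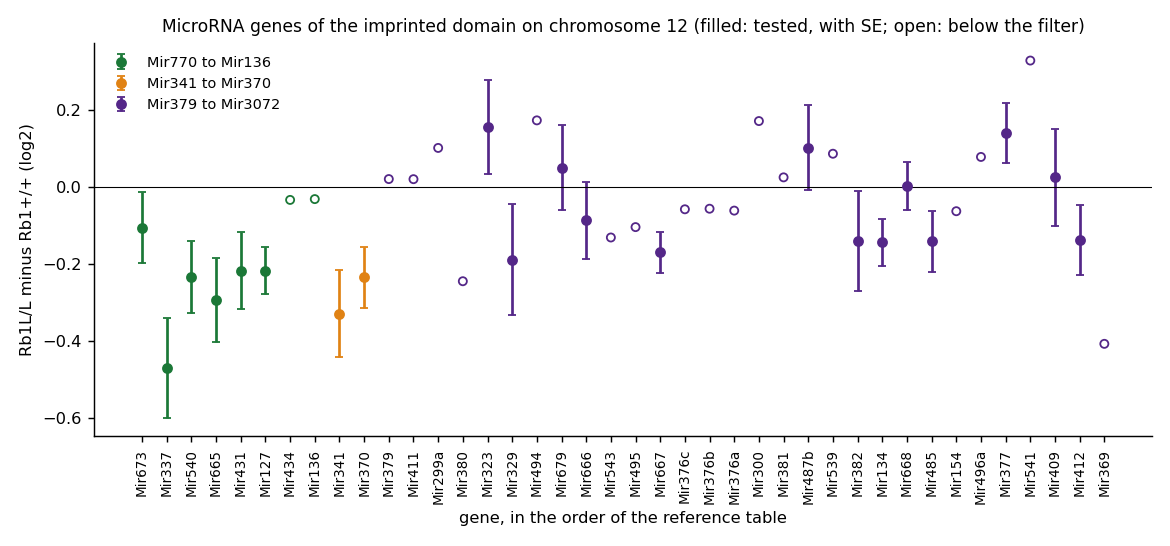
Log2 difference, Rb1L/L minus Rb1+/+, of the microRNA genes of the imprinted domain in the order of the reference table, coloured by stretch; filled points were tested and carry their SE, open points lay below the floor. All green and orange points lie below 0, with Mir337 lowest at −0.47, and the violet points lie on both sides.

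Hairpins in protein-coding or non-coding hosts can be read against the host. Of the 300 members, 184 lie inside another annotated gene, and for 41 tested members a tested host on the same strand was on the array. In none of the 41 pairs were both called, in 2 only the microRNA was (Mir423 and Mir677) and in 6 only the host was. The called hosts were 4 of 31, against 12.2% of all tested genes. They were Mcm7, the actin regulator Evl, the nuclear pore gene Nup93 and the transcription factor gene Nfyc. With so few calls on either side, the lack of joint calls does not show that hairpins and hosts moved apart. With the replicate block 2 pairs were both called. The hairpin of Evl, Mir342, differed by −0.08 against 0.23 for Evl, and that of Nup93, Mir138-2, by 0.00 against 0.34 for Nup93.

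Of 28 genes that make or use microRNAs, 26 were tested and 4 (15.4%, against 12.2% of all tested genes) were called. Adar, which edits double-stranded RNA including hairpins, read 9.03, 9.33 and 9.29 in Rb1L/L and 8.55, 8.52 and 8.53 in Rb1+/+. The Rb1+/+ arrays were nearly equal and all far below, and Adar rose by 0.69 ± 0.08 (adjusted p = 0.00409). Srrt, which links the RNA cap to the hairpin-cutting complex, read 9.79, 9.83 and 9.68 in Rb1L/L and 9.34, 9.35 and 9.35 in Rb1+/+ (0.42 ± 0.06, adjusted p = 0.00618).

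The helicase gene Ddx5, a cofactor of Drosha, rose by 0.27 ± 0.05 (adjusted p = 0.0186), and Tnrc6b, which carries out silencing with Argonaute, fell by 0.27 ± 0.06 (adjusted p = 0.027). Adar and Srrt were called with any 1 array left out, and Ddx5 and Tnrc6b in 2 of 6 such fits. The core steps were not called: Drosha differed by 0.01 ± 0.05, Dgcr8 by 0.12 ± 0.07, Xpo5 by −0.02 ± 0.06, Dicer1 by −0.18 ± 0.08 (adjusted p = 0.181) and Ago2 by −0.10 ± 0.08. The median of the 26 genes was −0.01. Ago3 differed by −0.33 ± 0.09 with an adjusted p of 0.0522, and of 0.0228 with the block.

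**Figure D5:**
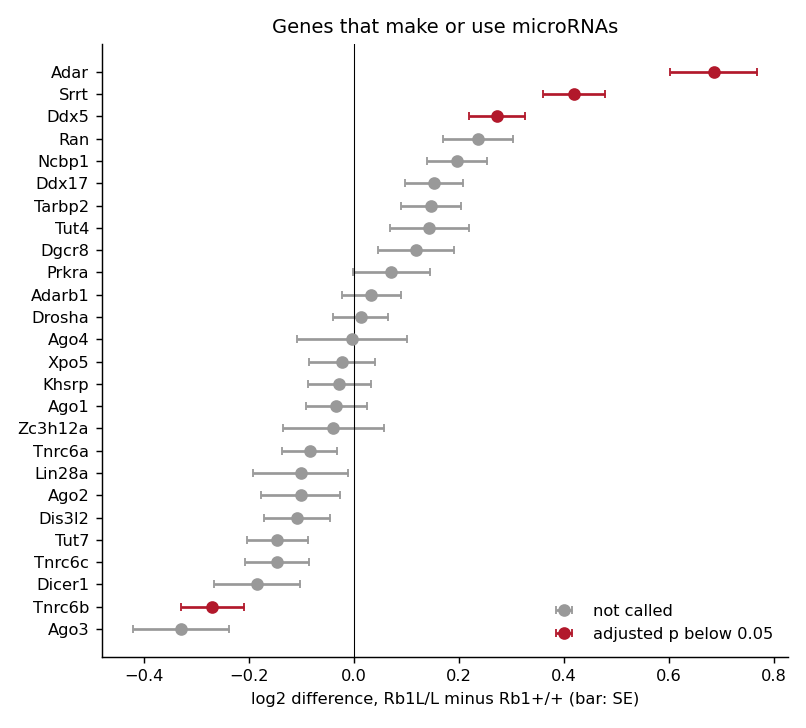
Log2 difference, Rb1L/L minus Rb1+/+, with its SE for the 26 tested genes that make or use microRNAs, in order of the difference, with called genes in red. Adar, Srrt and Ddx5 stand highest and Tnrc6b is the only gene called lower, while Drosha, Xpo5 and Dgcr8 lie within 0.12 of 0.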

How the data were processed

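The deposited values are log2 signals per transcript cluster, and the submitters' processing notes name RMA and Partek, with versions not given in the sources used here. In RMA all arrays are put on 1 distribution, so a shift of most genes in 1 direction would not show. Arrays have no read depth, so their number (3 per genotype) limits the precision. The log2 values ran from 2.28 to 14.16 and array medians from 6.393 to 6.449; arrays correlated at 0.9941 to 0.9959 within genotypes and at 0.9917 to 0.9948 between them.

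Of 35556 transcript clusters, 21789 carried 1 gene symbol, 1621 several and 12146 none in the platform annotation, and 21698 of the first matched the reference gene table (GRCm38.p6). MicroRNA names stood on 366 clusters, 305 of them with that symbol alone; the other 61 were not used. The brightest cluster stood for a gene, and the floor was the 90th percentile of 1194 receptor genes. The array's build was not given in the sources used here; printed coordinates are those of RefSeq sequences, and the table served only for names, neighbours and hosts.

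Both genotypes were fitted with limma 3.58.1 under R 4.3.3, using lmFit and eBayes without a block, and p-values were adjusted over the 15462 tested genes by Benjamini-Hochberg. The procedure was run on simulated arrays with planted changes and independent values on each array. Those arrays had no deviation shared by same-numbered arrays, so the run does not bear on the choice of block. Per the labels, the 3 cultures of each genotype are separate samples. Without a block, p-values set a difference against the moderated spread within genotypes, which includes any deviation shared by same-numbered arrays. Across tested genes, same-numbered arrays deviated together from the means of their genotypes (r = 0.30, 0.24 and 0.30). Arrays of opposite genotype with different numbers had r from −0.26 to −0.05. Both arrays numbered 1 also shared low Xist and high Eif2s3y. The design text speaks of pairs, so the numbers may pair the samples, but no label states a paired test. Calls and counts are therefore those without a block unless the block is named. With it, 13 microRNA genes and 5 processing genes were called, against 14.4% of all tested genes, and 2 pairs had hairpin and host both called. The block is also given where it changes a call. Alternatives covered the block, variance moderation, array weights, scaling, the floor, the choice of cluster and arrays left out. Named genes were the called members, the 12 brightest, members of the named clusters, the member of smallest p in each other cluster, let-7, tissue-restricted genes, members near log2 6.5, hosts and processing genes. Mir218-1, Mir145a, Mir181b-2, the dim genes called with no floor, Trim13 and Spryd7 were added after their values were seen. Members and lists were chosen with earlier results of these data known.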

Additional observations from a re-analysis of the deposited data

How the results depend on the processing

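The count of called microRNA genes was 9 and lay between 2 and 7 with 1 array left out (2 when Rb1L/L replicate 1 or 2 or Rb1+/+ replicate 1 was dropped, 3 when Rb1+/+ replicate 3 was, 5 when Rb1L/L replicate 3 was and 7 when Rb1+/+ replicate 2 was), against 622 to 1441 of all genes in place of 1883; fewer arrays also leave fewer degrees of freedom. Without both arrays numbered 1, 2 or 3 it was 1, 5 and 2, against 92, 467 and 460 of all genes. The replicate block called 13 microRNA genes and 2232 of all genes. Of the processing genes 4 were called, 7 with trended variances, 7 with array weights and 7 when only means above log2 6.5 were tested. The same fits called 1883, 2197 and 2010 of all 15462 tested genes, and 2172 of the 11158 above log2 6.5. With 1 array left out, 2 to 4 processing genes were called, and without both arrays numbered 1, 2 or 3 it was 1, 1 and 2. Pairs of a hairpin and host both called numbered 0, 2 with the replicate block, and 0 to 1 with 1 array left out, the 1 being without Rb1+/+ replicate 2. The cause of these shifts was not tested. The 14 genomic clusters became 17 when neighbours within 50 kb were joined.

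For the 15 called single genes with all 6 arrays, 124 of 129 alternative fits kept the call and direction. The 5 that lost the call concerned Mir196a-1 (adjusted p = 0.0671 with array weights and 0.0565 without the floor) and Mir423 (0.0676 with the replicate block, 0.0531 with trended variances and 0.061 without the floor). With arrays left out, 58 of 135 fits kept it and 77 lost it, none with a changed direction. Mir337 passed the threshold with trended or robust variances, either rescaling, or genes above log2 6.5 alone (adjusted p from 0.0429 to 0.0493). When only genes above log2 6.5 were tested, 7 of 76 microRNA genes were called, 2 higher and 5 lower, against 2172 of all 11158 such genes (19.5%). Rb1 stayed uncalled throughout, at 0.00 to 0.19 with 1 array left out. The block changed no call of a named microRNA or processing gene other than those given beside the gene.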
